A study of Rattus norvegicus with 120 samples.

Results

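Mul1, Pla2g2a, Ythdf2 and Rragd are 4 of 14218 genes measured on the array, all on rat chromosome 5, whose messenger RNA levels in the eye differed strongly between animals of a cross. They were measured by 5 probe sets, the groups of short DNA probes that read 1 transcript, out of 31099 on the array. Every probe set annotated to one of these symbols alone was taken, which gave 2 for Ythdf2 and 1 for each other gene. The genes had been chosen by their measured levels: at least 1 probe set of each had the level distribution that 1 locus of the cross would give, with 3 levels in the ratio 1:2:1. The levels in all 120 animals were used for that choice, so that shape is a description of the 4 genes and supports nothing about them.

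The animals were 120 male F2 rats, 12 weeks old, from an intercross of SR/JrHsd with SHRSP rats. Both are inbred, and SHRSP is a spontaneously hypertensive strain prone to stroke. The pooled RNA of an animal's 2 eyes was put on 1 Affymetrix array, so differences between arrays include measurement error as well as differences between animals. All animals form 1 group in the labels, and neither genotypes nor the parental strains were analysed here. The study was set up to find loci that set expression in the eye. Values are log2 levels made by RMA, a method that corrects background, normalises arrays and summarises the probes of a set. Each title holds an S code (10 codes of 11 to 13 arrays) and an L code (22 codes of 2 to 11 arrays), and the labels explain neither. S codes 1 to 5 each go with a single date in the titles, and the titles of S codes 6 to 10 hold no date. All levels below have the S code means taken out, except where stated. Array medians lay between 5.78 and 5.96, and the array of animal 63 was least like the rest, with a median r of 0.911 against the others, and that of animal 15 came next (0.949). Titles mark 3 arrays as scanned again, among them that of animal 63. The number of arrays limits the precision. In whole eyes, fewer cells of a type and less RNA per cell cannot be told apart, and poor binding of a probe to one strain's transcript can pass for a lower level.

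The 4 genes act in different parts of the cell. Mul1 encodes a ubiquitin and SUMO ligase of the outer mitochondrial membrane that takes part in mitochondrial fission and turnover. Pla2g2a encodes a secreted phospholipase A2 of group IIA, which cuts fatty acids from phospholipids and is known for its part in inflammation and in killing bacteria. Ythdf2 encodes a cytoplasmic reader of methylated adenosines in messenger RNA that speeds the decay of the transcripts it binds. Rragd encodes a Rag GTPase, which with its partners recruits the growth kinase complex mTORC1 to the lysosome when amino acids are plentiful. In an F2 generation, loci close together on a chromosome pass mostly together to the next generation, so the levels of genes set by linked loci vary together even where the genes share no function.

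In gene order along chromosome 5, taken from RefSeq's GRCr8 assembly, Rragd was 94th of 801 measured genes, Ythdf2 542nd, Mul1 630th and Pla2g2a 635th. Only 4 measured genes lay between Mul1 and Pla2g2a, while 87 lay between Ythdf2 and Mul1 and 447 between Rragd and Ythdf2. The 250 bases before the annotated start of the gene are shown because Mul1 and Pla2g2a lie near each other and moved in opposite directions. Sequences are given for 3 of the 4 genes, since the promoter source held none for Rragd. They come from RefSeq (GRCr8), read 5′ to 3′ on the strand of the gene, with matches to a searched motif in capitals.
Mul1, chr5:155935862-155936111, plus strand: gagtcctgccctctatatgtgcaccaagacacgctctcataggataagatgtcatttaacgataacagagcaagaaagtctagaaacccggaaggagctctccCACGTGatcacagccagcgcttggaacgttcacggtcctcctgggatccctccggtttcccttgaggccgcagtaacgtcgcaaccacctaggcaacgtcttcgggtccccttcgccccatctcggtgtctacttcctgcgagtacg
Pla2g2a, chr5:156359475-156359724, plus strand: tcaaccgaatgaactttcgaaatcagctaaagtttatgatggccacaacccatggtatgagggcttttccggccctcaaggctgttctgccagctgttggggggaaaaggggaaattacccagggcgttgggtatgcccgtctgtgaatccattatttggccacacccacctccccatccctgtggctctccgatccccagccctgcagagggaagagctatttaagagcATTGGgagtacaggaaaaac
Ythdf2, chr5:149690059-149690308, minus strand: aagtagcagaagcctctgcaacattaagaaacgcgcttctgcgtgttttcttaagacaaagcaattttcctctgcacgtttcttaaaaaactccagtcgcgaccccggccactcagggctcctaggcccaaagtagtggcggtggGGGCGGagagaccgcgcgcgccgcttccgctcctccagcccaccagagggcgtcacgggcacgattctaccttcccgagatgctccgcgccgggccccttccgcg

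The motifs searched on both strands were the E-box (CACGTG), the cAMP response element (TGACGTCA), the Sp1 box (GGGCGG), the CCAAT box and the TATA box in its form TATAAA. The Mul1 window held 1 CACGTG, which begins 147 bases before the start and occurs in 5.59% of 33469 windows of this length. The Pla2g2a window held 1 CCAAT, on the reverse strand 20 bases before the start (34.02% of windows), and the Ythdf2 window held 1 GGGCGG (30.5% of windows). No motif of the 5 was in more than 1 of the 3 windows, and TGACGTCA and TATAAA (1.59% and 12.9% of windows) were in none of them. Their GC content was 55.2% for Mul1, 52.4% for Pla2g2a and 60.4% for Ythdf2, against a median of 51.2%. These are letters of the reference genome, not of SR/JrHsd or SHRSP, and a match is no sign that a factor binds there.

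Mul1, the mitochondrial ligase gene (probe set 1378765_at), had log2 levels between 4.04 and 6.73 with a median of 5.63 over the 120 animals, an SD of 0.61 and a range of 6.44-fold. With 3 levels at 1:2:1 these were 4.55, 5.58 and 6.27, with an SD of 0.23 within a level. The highest level was 3.29-fold above the lowest, and the middle one lay 59.9% of the way up. By their most probable level, 20 animals were low, 68 in the middle and 32 high, and the assignment was under 90% probable for 22 of them.

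Pla2g2a, the secreted phospholipase gene (1368128_at), ran from 7.23 to 9.77 with a median of 8.85 and an SD of 0.66. Its 3 levels were 7.76, 8.83 and 9.38, a span of 3.08-fold, with the middle level 66.3% of the way up. The levels overlapped more than those of Mul1, since 47 animals had an assignment under 90%. A pair of levels in the ratio 1:3, at 7.81 and 9.04, described Pla2g2a slightly better than 3 levels did (BIC lower by 0.95, where the BIC weighs how well a distribution describes the values against its number of parameters).

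Ythdf2 had the widest spread of the 4 genes on its probe set 1371960_at, from 5.54 to 10.17 with a median of 8.63 and an SD of 0.95, a range of 24.8-fold. Its ordered values had a gap of 0.68, with 21 animals at or below 7.26 and 99 at or above 7.94. Away from the extremes, the largest gap of Mul1, Pla2g2a and Rragd was 0.10 to 0.14. The 3 levels of Ythdf2 were 6.67, 8.59 and 9.22, with an SD of 0.40 within a level, and the middle one lay 75.2% of the way up. They held 21, 67 and 32 animals from low to high. The assignment was under 90% probable for 64 of the 120 animals, the most of the 4 genes. Levels of 6.69 and 8.81 in the ratio 1:3 described Ythdf2 better (BIC lower by 3.65), a difference of 4.33-fold. The lowest value was that of animal 63, and without animals 63 and 15 the range was 13.8-fold.

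The second Ythdf2 probe set, 1375695_at, did not share this pattern. It ran from 6.43 to 8.52 with an SD of 0.31, and the best single distribution described it better than 3 levels did (BIC difference -22.4, against 16.1 for 1371960_at). Across animals the Ythdf2 probe sets had an r of 0.12 (rho 0.22, permutation p = 0.236 for r and 0.0183 for rho), and within S codes r ran from -0.71 to 0.64. The second probe set had an r of -0.47 with the 3′ to 5′ difference of the actin controls, a measure of RNA integrity, and of -0.48 with that of the GAPDH controls, while 1371960_at had r values of -0.025 and -0.032 with these. It was associated with 10689 of the 23324 other probe sets tested (45.8%), and with none when the first 5 principal components of all arrays were in the fit, where 2209 had an unadjusted p under 0.05. The Ythdf2 relations below are those of 1371960_at, and the cause of the difference between the probe sets was not tested.

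Rragd, the lysosomal GTPase gene (1373427_at), had levels from 3.81 to 5.93 with a median of 5.12 and an SD of 0.47. Its 3 levels of 4.28, 5.09 and 5.61 spanned 2.51-fold, with an SD of 0.17 within a level. They were the best separated of the 4 genes by the count of uncertain animals, 16, and held 22, 67 and 31 animals from low to high. The middle level lay 60.6% of the way up, close to that of Mul1 (59.9%).

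The genes had been called at a BIC difference above 10 in favour of the 3 levels, and Pla2g2a (10.65) and Mul1 (11.55) lay just inside this threshold, below Ythdf2 (16.13) and Rragd (18.91). The second Ythdf2 probe set was the only member probe set outside it. Without the 3 rescanned arrays Mul1 (9.87) and Pla2g2a (9.82) fell just short of it. With L code effects removed as well as S code means, all 4 were below it (-6.59 for Mul1, -5.58 for Pla2g2a, -0.53 for Ythdf2 and -4.08 for Rragd).

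**Figure D1:**
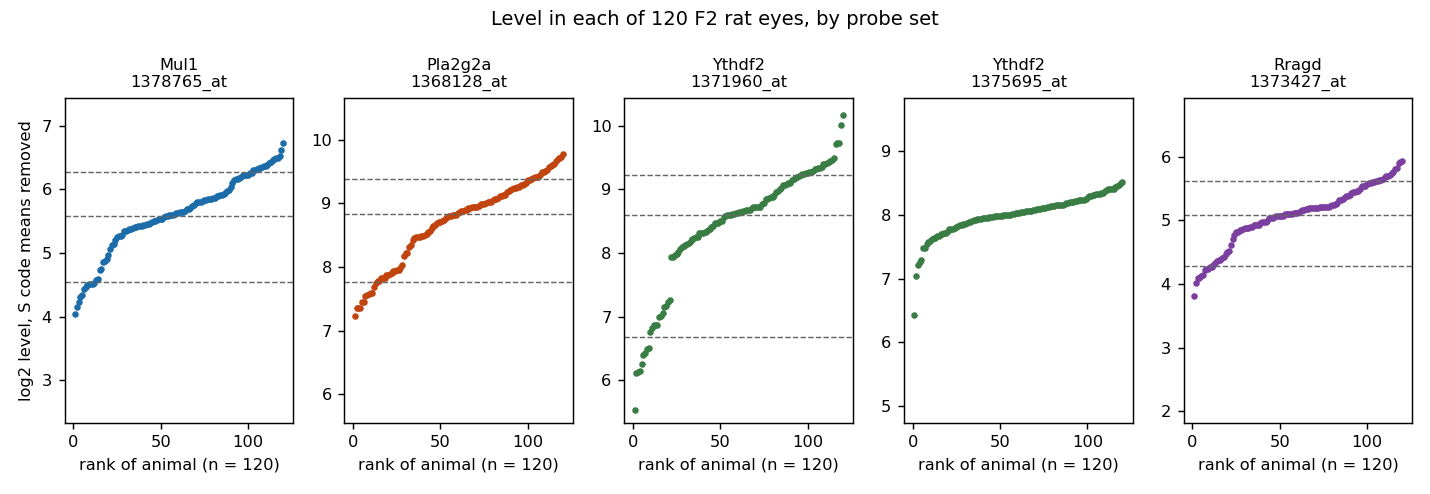
Log2 level of each member probe set with S code means removed (vertical axis) against the rank of the animal (horizontal axis, n = 120, 1 point per animal), with dashed lines at the 3 fitted levels of the 4 chosen probe sets. The gap between 21 and 99 animals is seen for Ythdf2 1371960_at, and 1375695_at of the same gene has a narrow spread and no such gap.

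The codes in the titles were tested with limma, which pools the spread over all probe sets, and p-values were adjusted by the Benjamini-Hochberg method over the 23326 probe sets past a filter on dim ones (all 5 member probe sets passed it). None of the 5 member probe sets differed between L codes at an adjusted p of 0.05, where 4.58% of all probe sets did. The adjusted p was 0.215 for Mul1, 0.182 for Pla2g2a, 0.373 for Ythdf2 1371960_at, 0.268 for Ythdf2 1375695_at and 0.269 for Rragd. Of the 5, 2 (Mul1 and Pla2g2a) had an unadjusted p under 0.05, as had 4965 of all 23326 probe sets. The S code, for which 92.1% of all probe sets were called, was past the threshold for Ythdf2 1375695_at alone, which averaged 8.23 ± 0.21 in S code 2 (SD, n = 12) and 7.50 ± 0.36 in S code 10 (SD, n = 13; limma adjusted p = 9.86e-06 over all codes). For Mul1, Pla2g2a, Ythdf2 1371960_at and Rragd the S code took 5.81% to 10.3% of the variance, with adjusted p-values from 0.182 to 0.637.

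Mul1 and Pla2g2a varied in opposite directions. An animal with much Mul1 had little Pla2g2a, with Pearson's r of -0.86 and Spearman's rho of -0.89 over the 120 animals (permutation within S codes, two-sided p = 1e-05 for each, the smallest that 100000 permutations can give). The r was negative within 10 of 10 S codes, from -0.92 to -0.80, and leaving out the 2 animals of most extreme Mul1 level gave -0.86. In limma's regression on the Mul1 level the adjusted p of Pla2g2a was 3.21e-30, the slope being -0.93 log2 units per unit of Mul1. Of the 30 animals highest in Mul1, 28 were among the 30 lowest in Pla2g2a and 0 among the 30 highest. Of the 30 lowest in Mul1, 24 were among the 30 highest in Pla2g2a and 0 among the 30 lowest. Unrelated genes would share 7.5 animals on average.

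Ythdf2 1371960_at rose with Mul1 (r = 0.64, rho = 0.69) and fell with Pla2g2a (r = -0.68, rho = -0.77), each with a permutation p of 1e-05 for both measures and limma adjusted p-values of 8.39e-11 and 1.29e-13. The sign was the same within 10 of 10 S codes for both pairs, although the size varied, from 0.16 to 0.94 with Mul1 and from -0.83 to -0.50 with Pla2g2a. With the 2 most extreme animals left out r was 0.64 and -0.68. Because the Ythdf2 level has a gap, r was also taken on either side of it, a split made after its values were seen. Among the 99 animals above the gap, Ythdf2 had an r of 0.57 with Mul1 and of -0.69 with Pla2g2a (permutation p = 1e-05 each). Among the 21 animals below it r was -0.19 with Mul1 (rho 0.0078, permutation p = 0.322 for r and 0.958 for rho, and r = 0.0043 without the 2 farthest animals) and -0.014 with Pla2g2a (rho -0.16, p = 0.961 and 0.437). A split on the Ythdf2 level narrows its range on either side, so these values in 21 animals do not show that the relation is lost there. Mul1 and Pla2g2a had an r of -0.84 above and -0.82 below the gap (permutation p = 1e-05 and 0.0183; rho below the gap -0.69, p = 0.0536). Of the 30 animals highest in Ythdf2, 21 were among the 30 highest in Mul1, and 21 were among the 30 lowest in Pla2g2a.

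With 1 of the 3 genes held fixed, the relation of Mul1 with Pla2g2a remained at a partial r of -0.75, given Ythdf2. That of Pla2g2a with Ythdf2 was -0.34 given Mul1, and that of Mul1 with Ythdf2 was 0.14 given Pla2g2a. The closest pair on the chromosome kept the most, but the other pairs did not follow distance. Mul1 and Ythdf2, with 87 measured genes between, kept less than Pla2g2a and Ythdf2, with 92 between. The differences between these partial r values were not tested.

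Rragd varied apart from the other genes. Its r was 0.076 with Mul1 (95% interval -0.11 to 0.26, permutation p = 0.432), -0.051 with Pla2g2a (-0.23 to 0.14, p = 0.605) and 0.15 with Ythdf2 1371960_at (-0.036 to 0.33, p = 0.108), 3 of the 6 pairs of genes. The rho values were -0.014, -0.0081 and 0.082. Without the 2 most extreme animals r was 0.018, -0.11 and 0.19, and within S codes both signs occurred for each pair. Each corner of the joint ranking held 6 to 11 animals where 7.5 are shared by unrelated genes. These intervals allow weak relations of up to 0.33 and do not show that there is none.

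**Figure D2:**
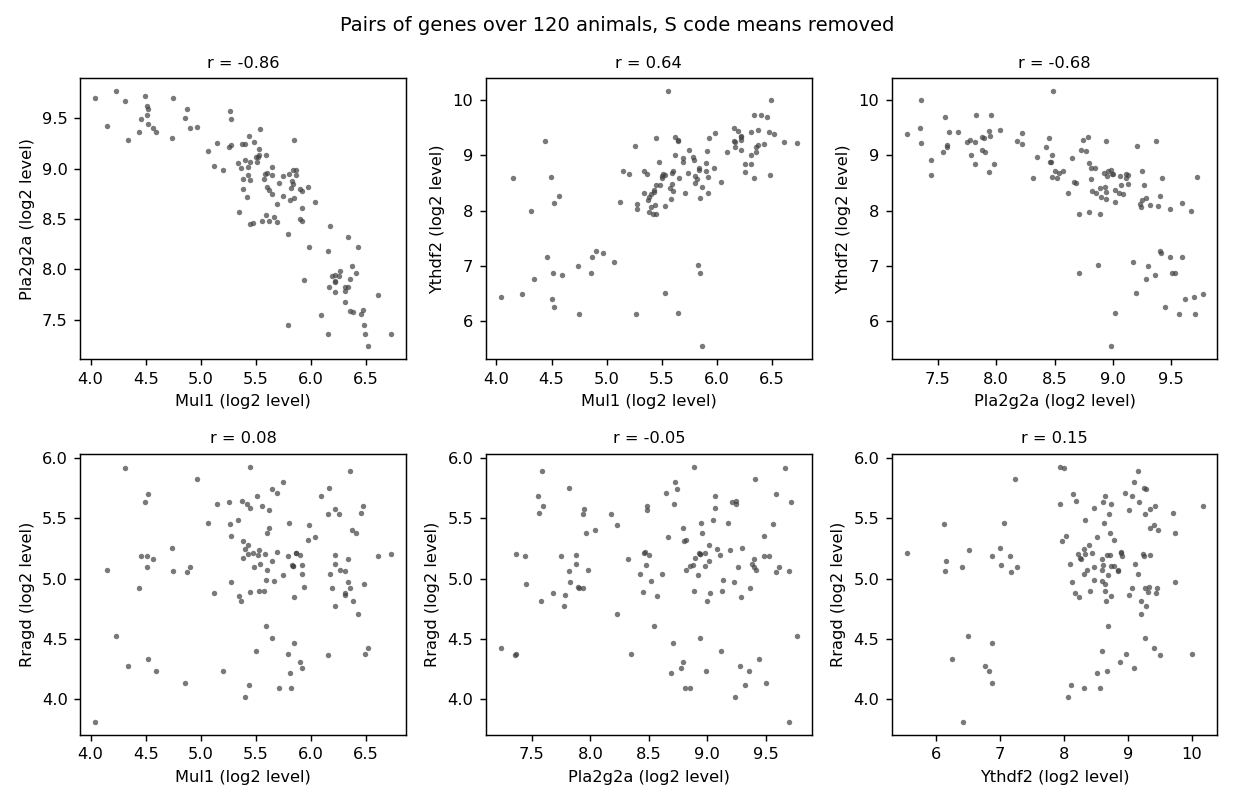
Log2 levels of each pair of the 4 genes, with S code means removed and 1 point per animal (n = 120; Ythdf2 by probe set 1371960_at). Mul1, Pla2g2a and Ythdf2 form slopes (r = -0.86, 0.64 and -0.68), and the 3 panels with Rragd show no slope (r between -0.051 and 0.15).

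The recombination fraction, the share of gametes in which a pair of loci was separated, was estimated from the levels alone, with 1 locus for each gene and the 3 levels above as genotypes. It was 0 for Mul1 and Pla2g2a, with a support interval of 0 to 0.021 and a LOD score of 34.5, where the LOD is the log10 likelihood ratio against free recombination and the interval holds values within 1 LOD of the best. In this fit the high level of Mul1 went with the low level of Pla2g2a. For Mul1 and Ythdf2 the fraction was 0.088 (0.046 to 0.149, LOD 17.5), high with high. For Pla2g2a and Ythdf2 it was 0.053 (0.007 to 0.123, LOD 17.01), high with low. These intervals overlap, so the order of the loci was not resolved. Neither reaches 0 in this fit, but the levels were held at their fitted values. The intervals and LOD scores therefore leave out the error of the levels, and separate loci are not shown.

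Against Rragd the fraction was 0.421 for Mul1 (0.319 to 0.536, LOD 0.47), 0.446 for Pla2g2a (0.339 to 0.559, LOD 0.23) and 0.341 for Ythdf2 (0.239 to 0.468, LOD 1.51). Free recombination is a fraction of 0.5, which lay inside the interval for Mul1 and Pla2g2a and just outside it for Ythdf2. A residual correlation within genotypes, allowed in a further fit, was -0.4 for Mul1 with Pla2g2a and 0.5 for Mul1 with Ythdf2, and left the fractions at 0 and 0.103. These estimates assume that each level has 1 locus, which the levels cannot show. They also rest on overlapping levels, most of all for Ythdf2, where 64 animals had an assignment under 90% probable. The 3 levels are the shape by which the genes were chosen, and levels at 1:3 described Pla2g2a and Ythdf2 better (BIC lower by 0.95 and 3.65).

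Each member's level was then set against every other probe set by limma, with the S code as covariate and a threshold of 0.05 on the adjusted p. Mul1 was associated with 56 of 23325 probe sets (0.24%), 32 of them rising and 24 falling with Mul1. Of the 1129 others on chromosome 5, 32 were called (2.83%), and of 16009 on other chromosomes 0 were (0.0%), where 302 had an unadjusted p under 0.05. The remaining 24 had no place, since their probe sets had no single gene in the RefSeq table.

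Pla2g2a was associated with 51 probe sets (0.219%), 30 of them on chromosome 5 (2.66%) and 0 on other chromosomes (0.0%; 284 at an unadjusted p under 0.05). Ythdf2 1371960_at was associated with 66 (0.283%), 40 on chromosome 5 (3.55%) and 2 on others (0.0125%), the adenylate cyclase gene Adcy3 on chromosome 6 (r = -0.38) and Ccdc102a on chromosome 19 (r = 0.38). The call of Ccdc102a was lost with array medians subtracted (adjusted p = 0.0501), with ranks of the Ythdf2 level (0.0977), without the 3 rescanned arrays (0.18), without animals 63 and 15 (0.22) and with the L code (0.6), and that of Adcy3 with no S code covariate (0.0907). Rragd was associated with 87 (0.373%), 38 on chromosome 5 (3.37%) and 16 on others (0.0999%). For each of the 4 genes the share called was higher on chromosome 5 than over the whole array.

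The Rragd count moved most with single arrays. It was 147 without animal 63, of which 58 were on chromosome 5 and 44 on other chromosomes, and 240 without the 3 rescanned arrays, of which 67 and 110 were. Without animal 90, also rescanned, 36 were on other chromosomes, and without animal 15 the count was 77 with 11 on other chromosomes. Its chromosome 5 count, from 35 to 67 over these, moved less than its count elsewhere, from 11 to 110.

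**Figure D3:**
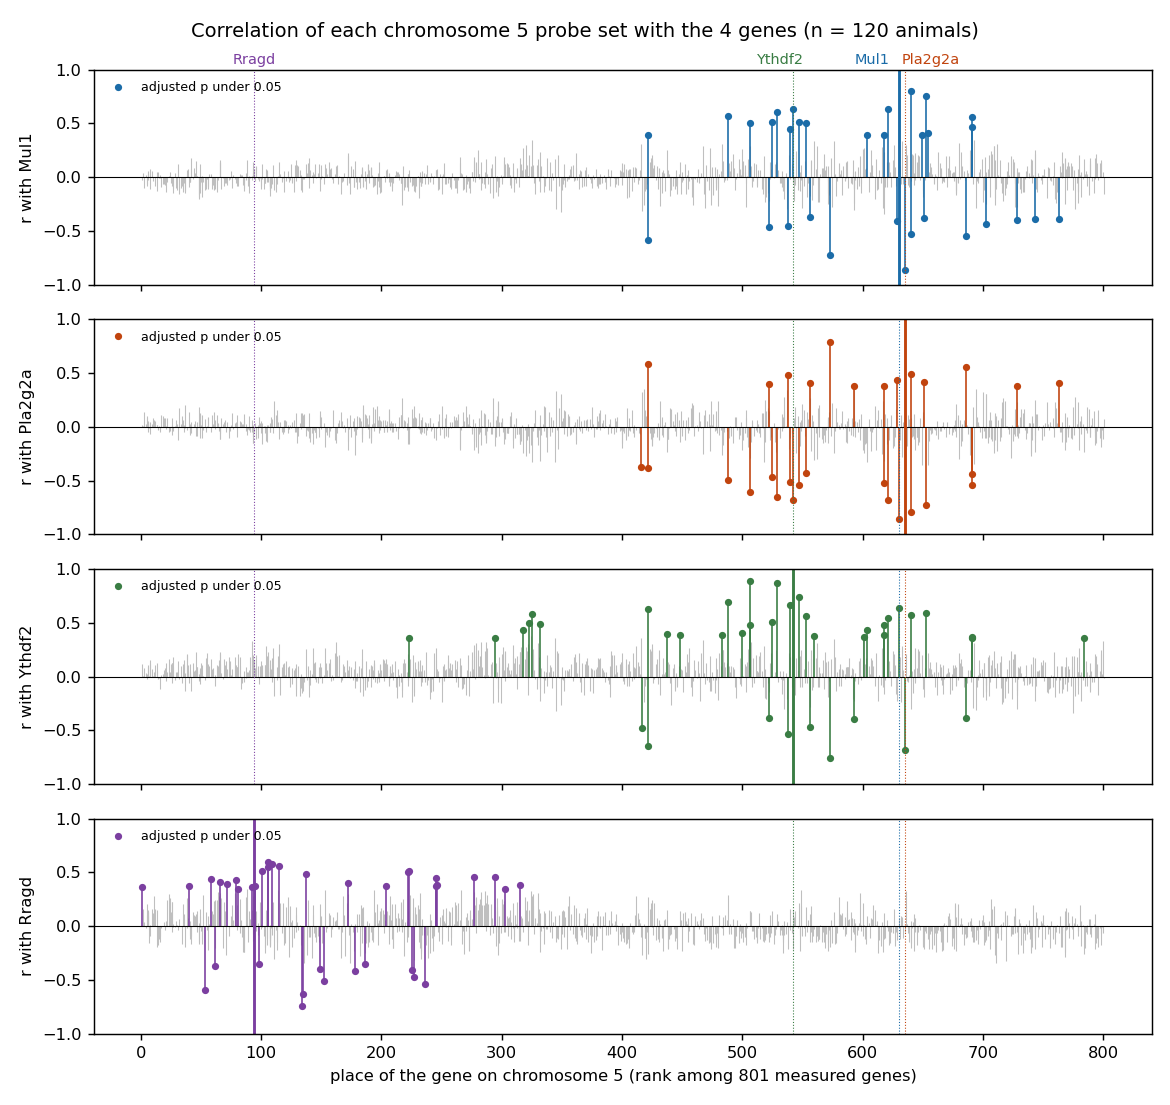
Pearson's r of each probe set on chromosome 5 with each of the 4 genes (n = 120), by the place of its gene among the measured genes in GRCr8 order, with coloured points past a limma adjusted p of 0.05 and vertical lines at the 4 genes. The genes that varied with Mul1 and Pla2g2a lie toward the right end with opposite signs, and those that varied with Rragd lie toward the left end.

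The called genes spread far along the chromosome. Mul1 had 29 called genes there, from Ppih, with 207 measured genes between, to Morn1, with 132 between. The 26 of Pla2g2a reached from Slc2a1 (218 between) to Morn1 (127), the 36 of Ythdf2 from Ptgr1 (318) to Cptp (241), and the 36 of Rragd from Gdap1 (92) to Plpp3 (220). Beyond 400 genes none of the 4 had a called gene, out of 229, 234, 141 and 307 measured there for Mul1, Pla2g2a, Ythdf2 and Rragd.

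Most neighbours of a member did not pass the threshold with it, which does not show that they did not vary with it. Of the 20 nearest measured genes, 4 were called for Mul1, 3 for Pla2g2a, 2 for Ythdf2 and 4 for Rragd, each gene read by its probe set of highest mean. The median absolute r within 10 genes was 0.12 for Mul1, 0.14 for Pla2g2a, 0.13 for Ythdf2 and 0.21 for Rragd, against 0.056, 0.055, 0.077 and 0.092 for genes of other chromosomes. The few strong relations near each gene stand among many weak ones.

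**Figure D4:**
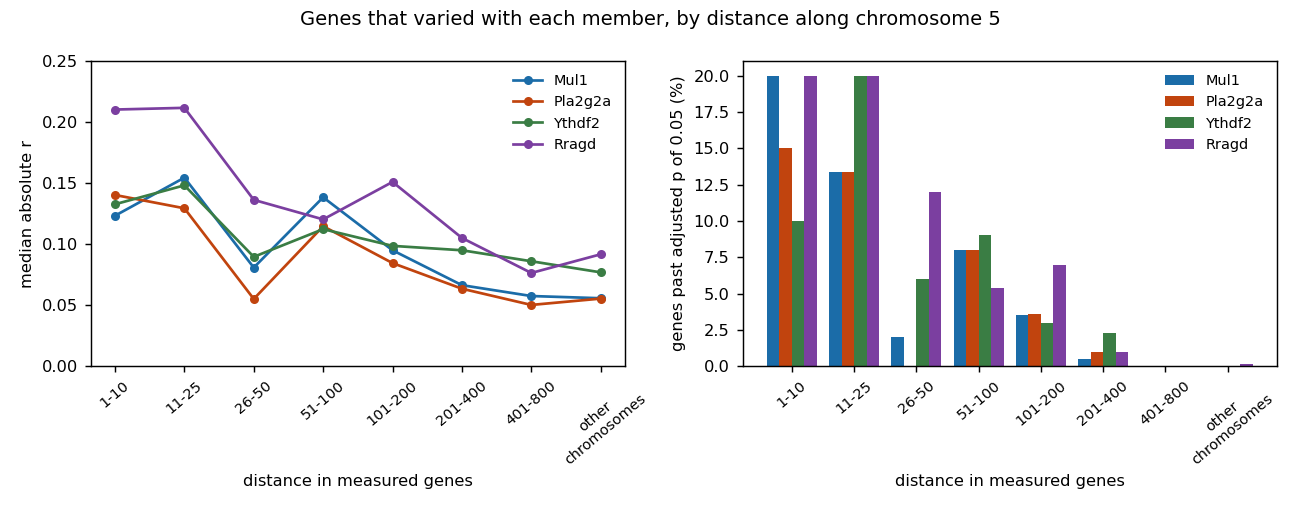
Median absolute r with each of the 4 genes (left) and percentage of genes past a limma adjusted p of 0.05 (right), by distance in measured genes along chromosome 5 and for other chromosomes (n = 120 animals, 20 to 307 genes per distance class on chromosome 5). For Rragd the median was 0.076 beyond 400 genes, against 0.21 within 10.

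Between Mul1 and Pla2g2a lay Camk2n1, an inhibitor of a calcium-dependent kinase, and the phospholipase A2 genes Pla2g2c, Pla2g2f and Pla2g5. None of the 4 passed the threshold with either gene. With Mul1 their r was 0.11 for Camk2n1, -0.061 for Pla2g2c, 0.34 for Pla2g2f (adjusted p = 0.112 by limma) and -0.062 for Pla2g5. With Pla2g2a it was -0.12, 0.11, -0.28 and 0.047 in the same order. Each of the 4 had opposite signs with Mul1 and Pla2g2a, which the r of -0.86 between Mul1 and Pla2g2a makes likely for any gene. The sizes did not pass, Pla2g2f having the largest. On the other side of Mul1, the cytidine deaminase gene Cda fell with it (r = -0.41, limma adjusted p = 0.00557), and next to Cda the mitochondrial kinase gene Pink1 had an r of -0.077 with Mul1 and 0.16 with Pla2g2a, neither past the threshold.

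Next to Ythdf2, Mecr, an enzyme of mitochondrial fatty acid synthesis, fell with it (r = -0.53) and the mediator subunit gene Med18 rose (r = 0.74). Next to Rragd, Lyrm2 and the ubiquitin-conjugating enzyme gene Ube2j1 rose with it (r = 0.36 and 0.37) and Pm20d2 fell (r = -0.35). With the L code in the fit the calls of Cda, Lyrm2, Ube2j1 and Pm20d2 were lost, at adjusted p-values between 0.0771 and 0.349, while r was -0.33, 0.30, 0.36 and -0.38. The call of Cda was also lost with no S code covariate (r = -0.33, adjusted p = 0.0903) and that of Lyrm2 with ranks of the Rragd level (0.0694). That of Pm20d2 was lost with ranks (0.0885), with array medians subtracted (0.0743) and with no S code covariate (0.514). Other near genes passed only in an alternative. Ptpru fell with Ythdf2 without the 3 rescanned arrays (r = -0.40, limma adjusted p = 0.00736) and without animals 63 and 15 (-0.44, 0.001). With 5 principal components in the fit, Sh2d5 rose with Mul1 (0.39, 0.00792) and Ankrd6 with Rragd (0.36, 0.0287). The GABA receptor genes Gabrr1 and Gabrr2, known from the retina, had r values of 0.027 and 0.14 with Rragd and did not pass.

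The 10 genes most like each member over the 120 animals, by absolute r among called probe sets of 1 gene each and with the members themselves set aside, all lay on chromosome 5. For Mul1 the first was Slc66a1, a lysosomal exporter of cationic amino acids, on probe set 1391098_x_at (r = 0.81). It was followed by the peptidylarginine deiminase gene Padi1 (0.75), the dolichol synthesis gene Dhdds (-0.73), the GTPase-activating gene Rap1gap (0.63), Serinc2 (0.61), Ppih (-0.58), Tmem35b (0.57), Agtrap (0.56), the lysyl hydroxylase gene Plod1 (-0.54) and the collagen gene Col16a1 (0.51).

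With an r of -0.86 between Mul1 and Pla2g2a, a gene strongly like one of them must vary oppositely with the other. The genes most like Pla2g2a included 8 of the 10 named for Mul1, each with the opposite sign, which adds nothing to that r. They were Slc66a1 (-0.79), Dhdds (0.79), Padi1 (-0.72), Rap1gap (-0.68), Serinc2 (-0.65), the intermediate filament gene Sync (-0.61), Ppih (0.58), Plod1 (0.56), Med18 (-0.54) and Agtrap (-0.54). Dhdds, which was 61 measured genes away, had a larger absolute r with Pla2g2a than any of its 10 nearest genes apart from Mul1 and Slc66a1.

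Ythdf2 1371960_at was most like Sync (0.89), which lay 35 measured genes away, and Serinc2 (0.87), 12 away. Dhdds (-0.75), Med18 (0.74), Tmem35b (0.69), the membrane skeleton gene Epb41 (0.66), Ppih (-0.64), Padi1 (0.59), Lrrc42 (0.58) and Slc66a1 (0.57) followed. Of these, 8 rose and 2 fell with Ythdf2. Rragd had a different set, led by Rpp25l (-0.74) and Galt, an enzyme of galactose metabolism (-0.63). Smim8 (0.59), the cyclin gene Ccne2 (-0.59), Lingo2 (0.58), Tmem215 (0.56), Wdr31 (-0.53), the prostaglandin reductase gene Ptgr1 (0.52), the cannabinoid receptor gene Cnr1 (0.51) and Creb3 (-0.51) followed. The adjusted p of the 40 relations was at most 3.53e-05 by limma.

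Other probe sets of the same genes did not always go the same way. Slc66a1 had 2 others, of which 1378429_at fell with Mul1 (r = -0.53) while 1377179_at did not pass (-0.031), against 0.81 for 1391098_x_at, a type of probe set that can bind other transcripts. Ppih 1374840_at rose with Ythdf2 (r = 0.63) where 1394554_at fell (-0.64). Both probe sets of Agtrap rose with Mul1 (r = 0.56 and 0.46), both of Sync with Ythdf2 (0.89 and 0.48) and, of the 3 probe sets of Smim8, the 2 past the filter on dim probe sets with Rragd (0.59 and 0.55). The second probe sets of Epb41 with Ythdf2 (0.18) and of Lingo2 and Cnr1 with Rragd (-0.079 and -0.010) did not pass.

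The genes known to work with each member were measured through lists. With Mul1, 0 of 23 genes of mitochondrial fission, fusion and mitophagy were called (median r -0.026, range -0.11 to 0.079, 0 at an unadjusted p under 0.05), where 0.195% of all 12325 genes were. With Pla2g2a, 0 of 24 phospholipase and eicosanoid genes were called (median r -0.0056, range -0.28 to 0.28, 3 at an unadjusted p under 0.05; 0.187% of all genes). With Ythdf2 it was 0 of 23 genes that write, erase or read methylated adenosines (median r 0.065, range -0.10 to 0.16, 0 at an unadjusted p under 0.05; 0.276%). With Rragd it was 0 of 35 genes of the Rag, mTORC1 and lysosomal system (median r -0.0054, range -0.29 to 0.23, 6 at an unadjusted p under 0.05; 0.365%), where the largest was Tsc2, an inhibitor of mTORC1 signalling (r = -0.29). The percentages here are of calls at the adjusted threshold. At an unadjusted p under 0.05 the shares of all genes were 2.88% for Mul1, 2.58% for Pla2g2a, 7.41% for Ythdf2 and 14.04% for Rragd. No list gene was called with its own member, and at the shares called over all genes fewer than 1 call would fall in a list of this size. Of the lists of the other members, 1 gene passed, Gdap1, a mitochondrial fission gene on chromosome 5 (r = 0.37 with Rragd, limma adjusted p = 0.021, 0.299 with the L code in the fit and 0.166 with no S code covariate).

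Markers of 9 tissues or cell types of the eye, namely rods, pigment epithelium, lens, corneal and conjunctival epithelium, skeletal muscle, glands, red cells, macrophages and fibroblasts, held 4 to 9 measured genes each. The lists have 64 entries in all, and Aqp5 is counted in both the corneal and conjunctival list and the gland list. With Mul1, Pla2g2a and Ythdf2, 0 of these genes were called in any list. Of the 64 entries, 3, 3 and 6 had an unadjusted p under 0.05 (4.69%, 4.69% and 9.38%, against 2.88%, 2.58% and 7.41% of all genes). With Rragd 1 gene was called, the rod transducin gene Gnat1 on chromosome 8 (r = -0.36, limma adjusted p = 0.0436). Of the 64 entries 12 had an unadjusted p under 0.05 with Rragd (18.8%, against 14.04% of all genes), and both entries of Aqp5 are among them (limma unadjusted p = 0.0375). Gnb1 of the rod list and C1qa, C1qb and C1qc of the macrophage list lie on chromosome 5 like the members. Gnb1 had an unadjusted p under 0.05 with Mul1 and Rragd, and C1qb with Ythdf2 and Rragd. C1qa and C1qc had none with any member. The Gnat1 call was lost with no filter on dim probe sets (adjusted p = 0.051), without animals 63 and 15 (0.0521), with array medians subtracted (0.0916), with no S code covariate (0.361) and with the L code (0.376). The 9 rod genes had a median r of -0.20 with Rragd and a range of -0.36 to 0.056, where all genes had a median of 0.017. Rragd had an r of 0.20 with the first principal component of all arrays and of 0.075 with the actin integrity measure, and the part of these in the rod relation was not tested. For Mul1, Pla2g2a and Ythdf2 1371960_at these r values lay between -0.025 and 0.071.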

How the data were processed

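Eye RNA of 120 F2 rats was measured on 1 Affymetrix array per animal. Per the labels' protocols, TRIzol extraction was followed by RNeasy columns and one-cycle target labelling. The values are the authors' log2 output of RMA, per the submitters' processing notes, with no version. The genome build behind the probe sets was not given in the sources used here. RMA makes arrays more alike, so a shift common to most genes may not be seen. Probe sets were named by the platform annotation, updated by Entrez number (20764 of 20826 with 1 symbol matched) through RefSeq's GRCr8 table, which served for names, gene order and promoters (3 of 4 members matched).

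From these values, S code means were removed, and 23326 probe sets whose mean reached 4.283, the 25th percentile of all values, were tested with limma 3.58.1 in R 4.3.3: a moderated F test for the S code and for the L code (S code as covariate), and a regression of each probe set on each member's level (S code as covariate), Benjamini-Hochberg adjusted at 0.05. A member's level was that of its probe set with the largest BIC difference. Mixtures of 3 normal distributions at 1:2:1 with a common SD were compared with the best of a normal, t and skew-normal distribution, by maximum likelihood in SciPy 1.17.1, and recombination fractions were fitted from a 2-locus F2 likelihood. Pairs of genes were tested by 100000 permutations within S codes. The scripts were tested on simulated data. Named genes were the members, the 10 other genes of largest absolute r with each member among those called, the 5 nearest measured genes on each side, and up to 4 called genes of each list. The members, the lists and this rule were chosen with earlier results of these data known. Adcy3, Ccdc102a and the genes at the ends of the called stretches fall outside that rule and were named after their values were seen. No 2 arrays were alike enough to be 1 sample (smallest SD of a difference 0.181). The p-values reflect biological and array spread together.

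The alternatives were no S code removal, the L code or 5 principal components in the fit, the 3 rescanned arrays or animals 63 and 15 left out, no filter, array medians subtracted and ranks of the member level. RNA integrity covariates were used in the L code test only, and a fitted residual correlation in the recombination fractions only. Leaving out each rescanned array or animal 15 alone and the split at the Ythdf2 gap were chosen after seeing the data.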

Additional observations from a re-analysis of the deposited data

How the results depend on the processing

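The 3 correlations among Mul1, Pla2g2a and Ythdf2 were not fitted with RNA integrity covariates. They stayed past the threshold with the same sign under every alternative run for them, except among the 21 animals below the Ythdf2 gap. The split narrows the range of Ythdf2 in these animals. There r of Ythdf2 was -0.19 with Mul1 (0.0043 without the 2 farthest animals, rho 0.0078) and -0.014 with Pla2g2a. All 40 named most-like genes stayed past the threshold in each alternative that was run for them, none of which held RNA integrity covariates. The single-animal alternatives were not checked for these genes. Counts of associated probe sets moved by more than 1.5 times with 5 principal components in the fit (88 for Mul1, 97 for Pla2g2a, 120 for Ythdf2 and 150 for Rragd). For Rragd the count was also 42 with no S code covariate, 46 with the L code as a covariate, 240 without the 3 rescanned arrays and 147 without animal 63. Tissue marker genes called with Rragd numbered 0 with no S code covariate, with the L code, without animals 63 and 15, with no filter and with array medians subtracted, and 3 without the 3 rescanned arrays. The BIC difference fell below 10 with S and L code effects removed (-6.59 for Mul1, -5.58 for Pla2g2a, -0.53 for Ythdf2, -4.08 for Rragd), without the 3 rescanned arrays (9.87 for Mul1, 9.82 for Pla2g2a) and with no S code means removed (9.96 for Rragd). The L code test of Ythdf2 1375695_at passed with no S code covariate (adjusted p = 0.0082, limma). The cause was not tested for any of these. No paired analysis was possible because all animals are in 1 group. Each animal has 1 array, so array error and the difference between animals cannot be told apart.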

Other observations

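Rragd was the member with the most associated genes on other chromosomes, 16 in all, named here after their values were seen. Reep6, which is needed for rod outer segments, had the largest absolute r (-0.47, limma adjusted p = 0.000132), followed by the sulfotransferase gene Sult1c3 (0.41) and the photoreceptor trafficking gene Unc119 (-0.40). Tulp1, another photoreceptor gene (-0.38), and the rod transducin gene Gnat1 (-0.36) also fell with Rragd, as did Abcb8, Camsap1 and Smarcd1 (-0.37, -0.36 and -0.35). Genes that rose with it were Spry2, an inhibitor of receptor kinase signalling (0.39), Dcun1d4 (0.38), the integrin gene Itga8 (0.37), C14h4orf19 (0.37), the heat shock gene Hspa2 (0.36), Acsm1 (0.35), Sec16b (0.35) and the slow muscle troponin gene Tnnt1 (0.34). The number of such probe sets was 110 without the 3 rescanned arrays, 44 without animal 63, 36 without animal 90, 36 with 5 principal components in the fit, 30 without animals 63 and 15, 24 with array medians subtracted, 19 with ranks of the Rragd level, 13 with no filter on dim probe sets, 11 without animal 15, 4 with the L code in the fit and 1 with no S code covariate. Of the 16 only Reep6 and Unc119 passed with the L code in the fit, and neither did with no S code covariate (limma adjusted p = 0.152 and 0.0714). Sult1c3 alone passed with no S code covariate and was lost with the L code (0.318). Tulp1 was also lost with 5 principal components (0.0607). In the rod list Sag (r = 0.056) and Pde6a (0.0006) did not fall with Rragd, while the rest of that list had a negative r.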
